A study of Homo sapiens with 6 samples.

Results

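Chromosome 19 carries the densest collection of C2H2 zinc finger genes in the human genome. The RNA of 160 of them was followed here in HCT116, a human colorectal carcinoma cell line, after 16 h of auxin and in a DMSO control. The sample titles give no duration for DMSO. The members were the protein-coding genes of chromosome 19 in GENCODE release 29 whose symbol is ZNF followed by a number, with at most 1 letter after it, and which had an expected count of at least 10 in each of the 6 libraries. Of 246 chromosome 19 genes with such a symbol, 160 met the count minimum and 86 did not. The tables list 59526 entries in all. Among the 86 others, 29 were listed at 0 in every library and 8 reached 10 counts in some libraries but not in all. Just inside the minimum lay ZNF575, with a lowest count of 13, and ZNF763, with 13.45, and just outside it lay ZNF461, with 6.0, and ZNF439, with 5.01. The rule used no difference between the groups.

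The groups were 3 biological replicates given auxin and 3 given the solvent DMSO, both in the same cell line. Auxin is a plant hormone that triggers the breakdown of a protein fused to an auxin-inducible degron. Neither the tagged protein nor the clone is named in the labels, so each difference below is between auxin and DMSO in these cells and is not tied to a named protein. No library of untagged cells given auxin was analysed here. Nuclear speckles, bodies rich in splicing factors, and active chromosome regions are the subject of the series title.

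Most proteins of this family carry a KRAB box at the amino end and a tandem row of C2H2 zinc fingers encoded in a single long last exon. The fingers read DNA, often in transposable elements, and the KRAB box binds TRIM28 (also called KAP1), which brings in the histone methyltransferase SETDB1, HP1 proteins and the NuRD complex to silence the site. The genes arose by repeated tandem duplication, so neighbours in a cluster resemble each other in sequence.

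The sequence that these genes share is the code for the linker between adjacent fingers. A pattern of 14 letters with 4 free positions, read on the sense strand and coding for part of that linker, occurs in the longest protein-coding transcript of 127 of the 160 members (79.4%), against 576 of 19677 protein-coding genes (2.93%). Stretches of 180 coding bases are shown for 3 members that differ in base composition and in response to auxin, with the linker letters in capitals. They are from the GENCODE transcripts on GRCh38. The stretches of ZNF714 and ZNF566 begin at a linker match. That of ZNF414 is its first run of 180 coding bases within an exon, so its GC is of an unlike region. ZNF714 (chr19:21117082-21117261, plus strand, 33.9% GC in the stretch) fell, ZNF566 (chr19:36449307-36449486, minus strand, 41.7% GC) rose, and ZNF414 (chr19:8513162-8513341, minus strand, 66.1% GC) fell and has no match to the linker letters.
ZNF714: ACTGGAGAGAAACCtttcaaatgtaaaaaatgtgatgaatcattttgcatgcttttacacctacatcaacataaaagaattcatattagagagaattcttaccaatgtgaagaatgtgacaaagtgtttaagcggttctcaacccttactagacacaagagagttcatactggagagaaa
ZNF566: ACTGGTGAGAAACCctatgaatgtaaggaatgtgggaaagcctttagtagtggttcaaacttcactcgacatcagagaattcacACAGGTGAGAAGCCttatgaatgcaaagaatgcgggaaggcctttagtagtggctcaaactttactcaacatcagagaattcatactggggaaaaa
ZNF414: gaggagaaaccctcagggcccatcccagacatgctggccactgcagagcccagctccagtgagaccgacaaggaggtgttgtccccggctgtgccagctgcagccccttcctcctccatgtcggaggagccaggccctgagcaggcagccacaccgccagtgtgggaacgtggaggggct

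The first comparison asked how many members changed in RNA level after auxin. All 160 entered the test, edgeR's quasi-likelihood test with Benjamini-Hochberg adjustment over 19725 genes. With an adjusted p under 0.05, 81 members (50.6%) rose, where 25.4% of all genes and 27.8% of protein-coding genes tested rose. Lower calls were made for 16 members (10.0%), against a background of 26.9% of all genes and 33.4% of protein-coding genes. The other 63 members did not pass the test. The members' median log2 fold change was 0.32, with quartiles of 0.05 and 0.54, and 125 of 160 values were above 0, while the median over all genes tested was 0.02. Most rises were small, since 51 of the 81 called rises were below 1.5-fold and 4 reached 2-fold. Called falls reached a factor of 2 in 6 of 16 members. On log2(TPM + 0.1), where TPM is the length-scaled abundance, limma called 8 of the 160 members higher and 8 lower. Of all genes tested on that scale, 5.16% were called higher and 16.3% lower. The members' share of higher calls was thus near that of all genes there, and their share of lower calls was below it.

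The libraries of the groups were fully apart for many members. Every auxin library lay above every DMSO library, in CPM (counts relative to the library's total, scaled with TMM factors), for 89 members (55.6%), against 30.0% of all genes. Every auxin library lay below every DMSO library for 19 members (11.9%), against 30.4%. Members together took 0.232%, 0.226% and 0.230% of the counts in DMSO replicates 1 to 3 and 0.280%, 0.277% and 0.275% in the auxin replicates. The auxin shares were all higher than the DMSO shares. The members' summed TPM overlapped between the groups, at 937.2, 733.2 and 767.4 after DMSO and 975.5, 888.1 and 937.9 after auxin.

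The other protein-coding genes of chromosome 19 had the opposite tilt. Of 867 tested, 109 (12.6%) were called higher and 482 (55.6%) lower, and their median log2 fold change was -0.57. Among 226 ZNF-numbered genes on other chromosomes, 85 (37.6%) were called higher and 40 (17.7%) lower, with a median of 0.19. No test was made between these sets, whose genes share libraries and are not replicates.

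Levels were low for most members. Mean TPM had a median of 3.08, with quartiles of 1.60 and 6.22, and 18 members reached a mean of 10 TPM. The highest was ZNF146, also called OZF, a protein made almost wholly of zinc fingers, at a mean of 115 TPM. Its CPM was 150.4, 205.3 and 208.2 in the DMSO libraries and 201.7, 278.6 and 273.5 in the auxin libraries. The groups overlap, because auxin replicate 1 lies below DMSO replicates 2 and 3, and the log2 fold change of 0.42 ± 0.17 (SE, n = 3 per group) had an adjusted p of 0.0711 in edgeR's quasi-likelihood test. With the replicate number as a block its adjusted p in edgeR was 3.42e-06.

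The next highest by TPM were ZNF121, ZNF562, ZNF28 and ZNF317, and all 4 rose. ZNF121 had CPM of 168.2, 153.4 and 138.0 after DMSO and 243.8, 219.5 and 210.4 after auxin, a log2 change of 0.55 ± 0.09 (SE, adjusted p = 0.00207 in edgeR). ZNF28 went from 28.5, 33.8 and 35.3 CPM to 47.2, 55.1 and 54.8 CPM, a log2 change of 0.69 ± 0.10 (SE). In ZNF121 and ZNF28 the lowest auxin library lay above the highest DMSO library. The log2 fold changes of ZNF562 and ZNF317 were 0.41 and 0.51.

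The strongest rises among members with a mean of at least 1 CPM were those of ZNF573, ZNF544, ZNF566, ZNF780B, ZNF565, ZNF283, ZNF333 and ZNF816, with log2 fold changes from 0.96 to 1.47. ZNF573 had 0.80, 1.10 and 1.16 CPM after DMSO and 2.41, 2.98 and 3.07 CPM after auxin, a log2 change of 1.47 ± 0.18 (SE, adjusted p = 0.000499 in edgeR). ZNF544 went from 26.9, 29.7 and 34.2 CPM to 56.5, 68.0 and 67.5 CPM, a log2 change of 1.08 ± 0.11 (SE, adjusted p = 0.000194 in edgeR). For each of these 8 genes the groups did not overlap. ZNF566, whose finger code is printed above, had 9.78, 11.8 and 11.7 CPM after DMSO and 18.7, 25.2 and 22.8 CPM after auxin. ZNF780B had 5.68 to 6.48 CPM against 11.4 to 12.9 CPM. ZNF432, at a mean under 1 CPM, rose by a log2 change of 1.44.

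**Figure D1:**
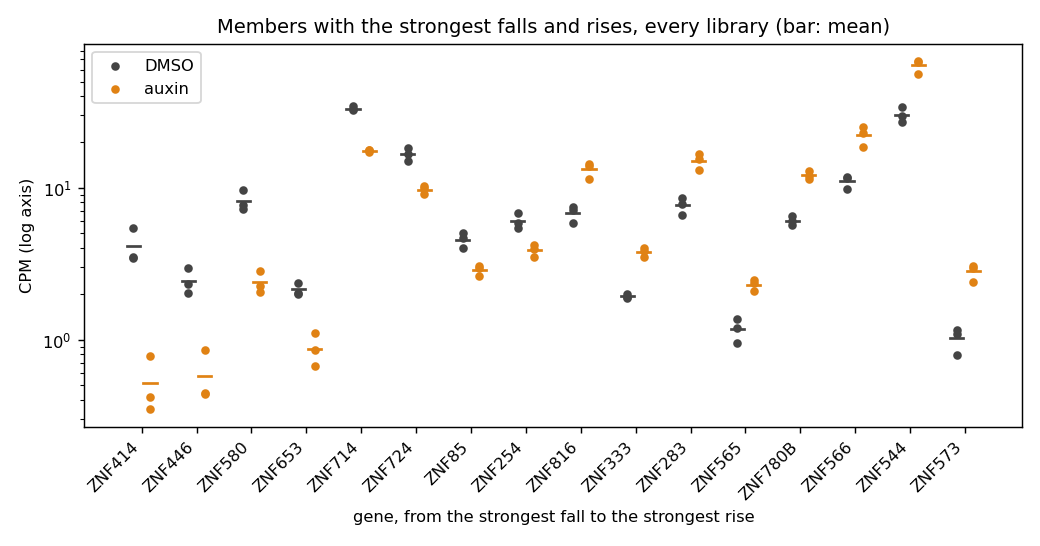
CPM on a log axis in each of the 3 DMSO (dark) and 3 auxin (orange) libraries for the 8 members with the strongest falls and the 8 with the strongest rises among called members with a mean of at least 1 CPM, with bars at the group means. In all 16 genes the auxin points lie wholly to one side of the DMSO points.

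The 8 strongest falls were of different base composition. ZNF414, ZNF446, ZNF580 and ZNF653 have exons of 60.2% to 63.1% GC and fell by 1.29 to 2.98 on the log2 scale, while ZNF714, ZNF724, ZNF85 and ZNF254 have exons of 34.7% to 41.6% GC, lie together near the centromere and fell by 0.64 to 0.92. ZNF414 had 5.43, 3.48 and 3.47 CPM after DMSO and 0.78, 0.35 and 0.42 CPM after auxin, a log2 change of -2.98 ± 0.35 (SE, adjusted p = 0.000366 in edgeR). ZNF580 went from 9.68, 7.65 and 7.22 CPM to 2.84, 2.06 and 2.25 CPM, a log2 change of -1.78 ± 0.17 (SE). In ZNF414 and ZNF580 replicate 1 was the highest of its group in both groups. ZNF580 shares 529 exonic bases with CCDC106 and ZNF581, and ZNF446 shares 2960 with SLC27A5, ZNF324 and an antisense gene, so the counts of these genes are uncertain. ZNF575, at a mean under 1 CPM, had the strongest fall of all members, a log2 change of -3.58 ± 0.30 (SE).

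Members with a known function were read whatever their change. ZNF274, which binds the 3′ ends of zinc finger genes and recruits TRIM28 and SETDB1 there, rose from 7.61, 7.84 and 8.37 CPM to 12.6, 13.4 and 12.9 CPM, a log2 change of 0.71 ± 0.08 (SE, adjusted p = 0.000258 in edgeR). ZNF350 (ZBRK1), a BRCA1-binding repressor, rose by a log2 change of 0.84 ± 0.16 (SE), with 2.60 to 3.67 CPM after DMSO and 4.86 to 6.19 CPM after auxin. ZNF587 and ZNF417, close paralogs that bind endogenous retroviruses of the HERV-K family, had log2 fold changes of 0.51 and 0.29 and were called higher, and reads of such near-identical genes may be split uncertainly. ZNF175 had a log2 change of 0.31 with an adjusted p of 0.0344 in edgeR. Leaving out DMSO replicate 2 or DMSO replicate 3 ended the calls of ZNF417 (adjusted p = 0.0804 and 0.0799 in edgeR) and of ZNF175 (0.0866 and 0.0579). For ZNF175 leaving out DMSO replicate 1, auxin replicate 2 or auxin replicate 3 did so too, with adjusted p of 0.0997, 0.117 and 0.117 in edgeR. GC offsets, described below, ended both calls, with log2 changes of 0.11 for ZNF175 and 0.089 for ZNF417 (adjusted p = 0.338 and 0.342 in edgeR), as did library-size scaling (0.0573 and 0.192) and no filter on low counts (0.0616 and 0.0869).

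ZNF91, the repressor of SVA retrotransposons, had 29.2, 30.7 and 29.6 CPM after DMSO and 33.6, 33.7 and 30.8 CPM after auxin. The auxin libraries were slightly higher without overlap, and the log2 fold change of 0.13 ± 0.06 (SE) did not pass the test, with an adjusted p of 0.111 in edgeR. With the replicate block it passed, with an adjusted p of 0.0142 in edgeR, but not with the block and GC offsets (log2 change 0.023, adjusted p = 0.678 in edgeR). ZNF224, a repressor of the aldolase A gene, had a log2 change of 0.26 with an adjusted p of 0.0717 in edgeR and of 0.00245 with the block, and with the block and GC offsets the values were 0.10 and 0.126. The values nearest to 0 were those of ZNF584 (0.00 ± 0.07, SE) and ZNF799 (0.02 ± 0.09, SE). ZNF93, ZNF331 and ZNF382, which also have described functions, did not reach the count minimum.

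The members were then placed along the chromosome, with a new cluster wherever 2 neighbouring starts lay more than 1 Mb apart. This gave 18 clusters, and 16 of the 18 held at least 1 member called higher. The cluster from ZNF175 to ZNF761 (chr19:51571298-53458261, GRCh38) held 26 members, of which 20 rose and 0 fell at an adjusted p under 0.05, with a median log2 fold change of 0.60, and 25 of the 26 values were above 0. The distal cluster from ZNF264 to ZNF446 (chr19:57191500-58481230) held 33 members, of which 20 rose and 3 fell, with a median of 0.34. In the cluster from ZNF565 to ZNF573 (chr19:36182060-37817300), 7 of 12 rose and all 12 values were above 0, with a median of 0.46. Rises were fewer in the ZNF653 to ZNF791 cluster (chr19:11483427-12640098), with 3 higher and 2 lower of 15 and a median of 0.22, and in the ZNF575 to ZNF296 cluster (chr19:43525497-45076588), with 7 higher and 2 lower of 19 and a median of 0.26. Other genes inside the span of the ZNF264 to ZNF446 cluster had 3 higher and 1 lower of 9 tested. In the ZNF557 to ZNF846 cluster (chr19:7069444-9793180), where 8 of 14 members rose and 1 fell, the 39 other genes tested had 2 higher and 21 lower, with a median log2 fold change of -0.70 against 0.30 for the members.

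The pair of clusters nearest the centromere, from ZNF85 to ZNF100 (chr19:20923222-21767628) and from ZNF724 to ZNF254 (chr19:23221599-24129961), had no member called higher. This pair was singled out after its values were seen, so no test is given. Of its 12 members 6 fell, and 10 of the 12 log2 fold changes were below 0, with a median of -0.36. Lower calls were made for 26.9% of all genes and 33.4% of protein-coding genes tested, and higher calls for 25.4% and 27.8%. For the other protein-coding genes of chromosome 19 the shares were 55.6% lower and 12.6% higher. The 148 members elsewhere had 81 higher and 10 lower calls and a median of 0.35. Both sets hold AT-rich genes. Among members under 40% GC, the 10 in this pair of clusters had a median of -0.36 with 0 higher and 5 lower, and the 9 elsewhere had a median of 0.64 with 7 higher and 0 lower. Across 18 alternative settings the pair's median stayed between -0.46 and -0.24, with 0 to 1 members called higher and 3 to 10 called lower. These settings refit the same libraries in which the pair was noticed, so they show only its dependence on processing.

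**Figure D2:**
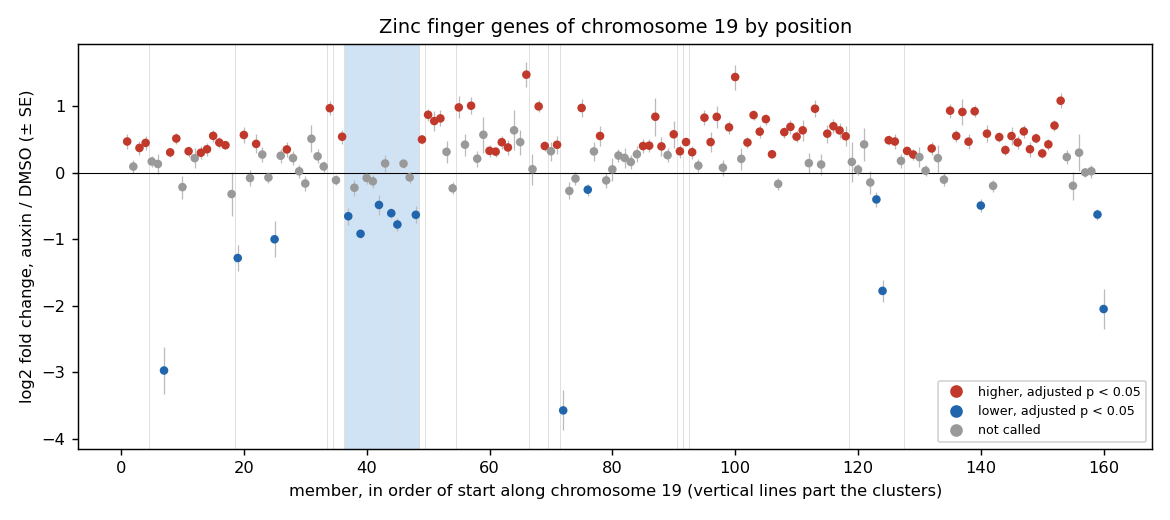
Log2 fold change, auxin over DMSO, with its SE for all 160 members in their order along chromosome 19. Vertical lines part the 18 clusters, and the shaded band marks the 12 members of the pericentromeric pair, of which 6 are called lower (blue) and 0 higher (red). Of all genes tested, 26.9% were called lower and 25.4% higher.

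Within this pair the members did not move alike. ZNF714 had 34.4, 32.6 and 32.8 CPM after DMSO and 17.7, 17.8 and 17.2 CPM after auxin, a log2 change of -0.92 ± 0.06 (SE, adjusted p = 2.24e-05 in edgeR). ZNF724 went from 15.1, 16.7 and 18.4 CPM to 9.04, 9.94 and 10.2 CPM, a log2 change of -0.78 ± 0.10 (SE). ZNF100 went from 30.8, 31.3 and 34.3 CPM to 19.7, 22.0 and 21.4 CPM, a log2 change of -0.61 ± 0.07 (SE). In these 3 genes the groups were far apart. ZNF85, ZNF254 and ZNF738 fell as well, by 0.66, 0.64 and 0.49 on the log2 scale. ZNF431, the neighbour of ZNF714, had 18.2 to 21.4 CPM after DMSO and 17.6 to 19.8 CPM after auxin. Its groups overlap, and its log2 fold change of -0.08 ± 0.08 (SE) did not pass the test, with an adjusted p of 0.462 in edgeR. ZNF430, ZNF708, ZNF675, ZNF493 and ZNF91 were not called either, though with the replicate block ZNF430 was called lower (adjusted p = 0.00456 in edgeR).

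**Figure D3:**
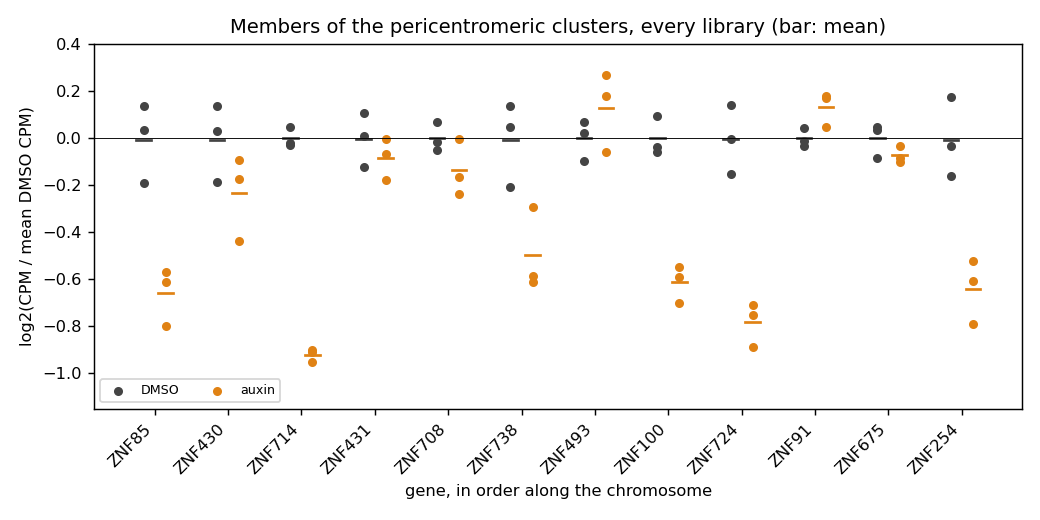
Log2 of CPM over the gene's mean DMSO CPM in each library for the 12 members of the pericentromeric clusters, in order along the chromosome (dark, DMSO; orange, auxin; bars, means of the plotted values). ZNF85, ZNF714, ZNF738, ZNF100, ZNF724 and ZNF254 have all 3 auxin libraries below all 3 DMSO libraries, and ZNF91 has them above.

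The promoters of these genes resemble each other closely. RefSeq promoters, 250 bases before to 50 after the start on GRCh38.p14, were given for 141 of the 160 members and for 11 of these 12. The 11 had a median pairwise identity of 77.8% over 55 pairs, while the medians within the 6 other clusters of at least 12 members were 50.6% to 52.1%. Their median GC was 56.0% and their median number of CpG was 10, against 61.3% and 22 for the 130 promoters of members elsewhere. The ETS-type letters CCGGAAG, on either strand, occur in 10 of the 11 (90.9%), in 55 of the 130 others (42.3%) and in 14.4% of all 14896 promoters.

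An exact run of 11 letters, GTCCAATCAGG, holds the CCAAT letters of a CCAAT box. The search kept the longest run shared on the sense strand by at least 9 of the 11 promoters, in the 250 bases before the start. A count of at least 9 was thus set by the search and is no result. Of the 11, the promoters of ZNF708 and ZNF493 lack the run. Counted on either strand in those 250 bases, it occurs in 45 of all 14896 promoters (0.302%), the 9 included. It is in capitals in the sequences below, which run up to 250 bases before the start and end where an annotated exon begins. They are shown for ZNF714 (chr19:21081953-21082158, plus strand) and ZNF724 (chr19:23250395-23250644, minus strand), which fell, for ZNF431 (chr19:21141790-21142023, plus strand), which was not called, and for ZNF14 (chr19:19733113-19733362, minus strand), which lies outside the pair and rose.
ZNF714: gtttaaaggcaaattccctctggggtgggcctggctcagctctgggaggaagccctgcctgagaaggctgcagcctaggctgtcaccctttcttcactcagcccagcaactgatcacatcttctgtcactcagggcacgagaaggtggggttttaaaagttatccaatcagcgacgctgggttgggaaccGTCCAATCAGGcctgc
ZNF724: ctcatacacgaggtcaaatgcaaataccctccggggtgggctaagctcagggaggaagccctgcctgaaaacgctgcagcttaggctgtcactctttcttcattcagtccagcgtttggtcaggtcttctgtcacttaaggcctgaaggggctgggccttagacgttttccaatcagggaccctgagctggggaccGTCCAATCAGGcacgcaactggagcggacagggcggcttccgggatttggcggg
ZNF431: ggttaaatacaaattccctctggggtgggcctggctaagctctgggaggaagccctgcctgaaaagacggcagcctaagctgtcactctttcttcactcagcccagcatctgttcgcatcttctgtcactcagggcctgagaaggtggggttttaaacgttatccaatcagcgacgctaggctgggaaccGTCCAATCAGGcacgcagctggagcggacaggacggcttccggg
ZNF14: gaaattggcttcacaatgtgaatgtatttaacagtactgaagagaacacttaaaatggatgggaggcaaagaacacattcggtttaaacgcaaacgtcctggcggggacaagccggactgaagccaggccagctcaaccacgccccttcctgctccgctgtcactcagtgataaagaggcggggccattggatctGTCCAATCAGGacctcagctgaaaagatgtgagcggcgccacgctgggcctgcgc

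The same letters occur in the promoters of 6 members elsewhere on chromosome 19, of which 3 were called higher and 0 lower. ZNF14, ZNF57 and ZNF136 rose by log2 fold changes of 0.54, 0.37 and 0.35, while ZNF490 (0.24), ZNF791 (0.09) and ZNF101 (-0.11) were not called. With the replicate block ZNF490 and ZNF791 were called higher too (adjusted p = 0.00753 and 0.0280 in edgeR). ZNF709, a chromosome 19 gene under the count minimum, also carries the letters and was not called, with a log2 value of -1.84. Apart from the 11 letters their promoters differ from those of the pericentromeric pair, with median identities to them of 50.4% to 53.5%.

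On other chromosomes, 9 tested ZNF-numbered genes carry the letters, and 6 of the 9 were called lower and 0 higher, where 26.9% of all genes and 17.7% of ZNF-numbered genes on other chromosomes were called lower. ZNF107 on chromosome 7 had 23.3 to 25.9 CPM after DMSO and 13.5 to 14.6 CPM after auxin, a log2 change of -0.81 ± 0.07 (SE, adjusted p = 8.88e-05 in edgeR). ZNF680 and ZNF138, also on chromosome 7, had log2 fold changes of -0.75 and -0.60. The promoters of these 3 genes have median identities of 76.9% to 79.6% to the pericentromeric ones. ZNF519 on chromosome 18 (-0.92), ZNF678 (-0.42) and ZNF695 (-0.25) on chromosome 1 also fell, with median identities of 68.1%, 60.9% and 65.4%. ZNF195 (0.24, identity 62.7%), ZNF267 (0.19) and ZNF862 (-0.16) were not called. Upper-quartile scaling called 5 of the 9 lower and 2 higher, and the replicate block 6 lower and 2 higher, the latter being ZNF195 and ZNF267. Of 4 other tested genes with the letters, ERV3-1 on chromosome 7, whose promoter has a median identity of 76.8%, rose by 0.71 on the log2 scale and MYPN by 2.23. GATA6 (0.14) and PCGF5 (-0.22) were not called. With the replicate block GATA6 was called higher and PCGF5 lower (adjusted p = 0.0259 and 0.000708 in edgeR). Whether the promoter letters have a part in these changes was not tested.

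**Figure D4:**
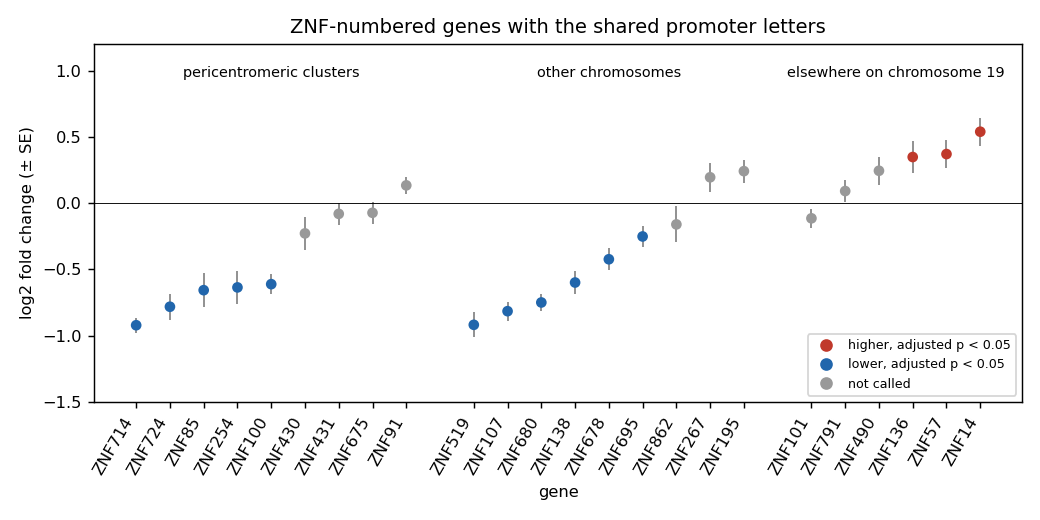
Log2 fold change with its SE for the ZNF-numbered genes whose promoter holds the 11 shared letters, in the pericentromeric clusters (9 genes), on other chromosomes (9 genes) and elsewhere on chromosome 19 (6 members; ZNF709, under the count minimum, is not drawn). Calls at an adjusted p under 0.05 are blue for lower and red for higher: 5, 6 and 0 genes are lower and 0, 0 and 3 higher.

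Exonic GC was compared with the change across members. Members had a median exonic GC of 44.0%, with quartiles of 41.1% and 48.1%, against 59.8% for the other protein-coding genes of chromosome 19. Pearson's r between GC and log2 fold change was -0.30 over the 160 members (Spearman's rho = -0.10), and -0.42 over 13985 other protein-coding genes. These correlations are across genes, which share the 6 libraries and are not independent replicates. Within the members the relation was between 2 ranges of GC rather than along them, with r = 0.14 over the 138 members under 55% GC and 0.25 over the 22 members of at least 55%.

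Members of 45% to 50% GC rose most often, with 22 of 32 called higher and a median log2 fold change of 0.40, where the other protein-coding genes of that range had a median of 0.19 and 39.9% called higher. At 40% to 45% GC the median was 0.33 over 80 members and 0.14 over the others. At 60% GC and above, 3 of 17 members rose and 6 fell, their values ran from -3.58 to 0.58, and their median was 0.04, while the 2017 other genes of that range had a median of -0.91 and 61.7% called lower. ZNF787, at 65.3% GC, rose by a log2 change of 0.47, and ZNF784, in the same GC range, fell by 0.40 on the log2 scale. With offsets that remove each library's smooth trend on GC, r over the members turned to 0.27. With them 65 members were called higher and 23 lower, against 27.6% and 25.9% of all genes tested. ZNF784 turned to 0.69 and was called higher. The log2 change of ZNF653 shrank from -1.29 to -0.34 and no longer passed the test (adjusted p = 0.0662 in edgeR). With the offsets and the replicate block ZNF653 was at -0.33 and passed (adjusted p = 0.0103 in edgeR).

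**Figure D5:**
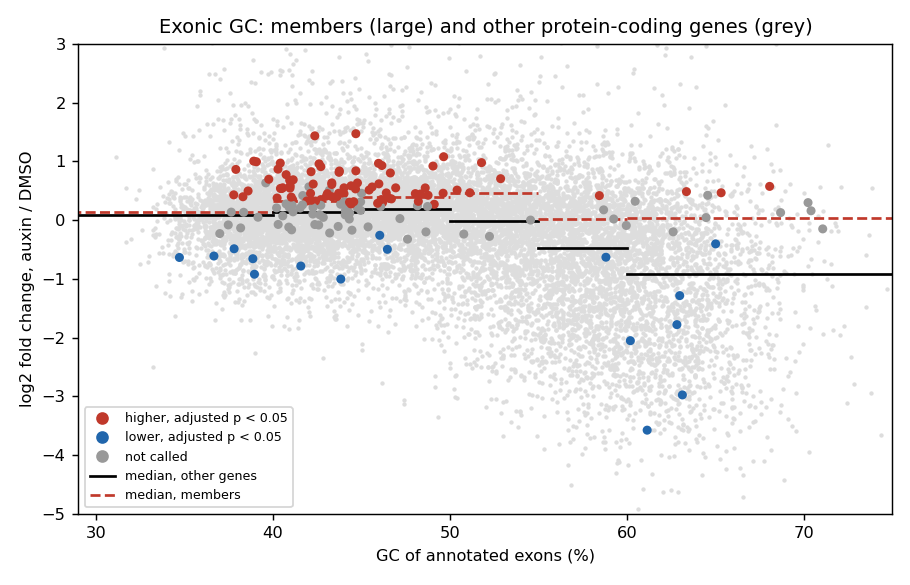
Log2 fold change against the GC of annotated exons for the 160 members (large points, coloured by call) and other protein-coding genes (small grey points), with medians per GC range (black, other genes; dashed red, members). A few grey points lie beyond the vertical axis. At 60% GC and above the member median of 0.04 lies above the median of -0.91 of the other genes.

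Introns were counted as gaps between the merged exons of all annotated transcripts. Members had a median of 5 introns and 16660 intron bases, against 10 and 27640 for other protein-coding genes. Across the members r between log2 fold change and the log2 of the intron number was 0.14, and for the log2 of the intron bases it was 0.24. GC and intron number were themselves related, with r = -0.34. The 21 members with under 5000 intron bases had a median log2 fold change of 0.13, with 8 higher and 4 lower, and the 19 with at least 40000 had a median of 0.40, with 11 higher and 1 lower. Other protein-coding genes went the same way, with a median of -0.30, 18.1% higher and 45.2% lower in the first range and a median of 0.09, 32.9% higher and 25.3% lower in the second. With only the longest protein-coding transcript counted, r for the intron number was 0.016, and with the GC offsets it was -0.16 for the number and -0.036 for the bases.

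Transcript make-up was read from the transcript tables. Of the members' summed TPM, transcripts annotated as retaining an intron held 2.74%, 2.21% and 1.91% in the DMSO libraries and 2.40%, 1.75% and 1.66% in the auxin libraries. The ranges overlap, and the auxin share was the lower in each of the 3 same-numbered pairs. Transcripts annotated for nonsense-mediated decay held 2.92%, 2.79% and 2.77% after DMSO and 2.29%, 2.33% and 2.24% after auxin, without overlap. For the other protein-coding genes these shares overlapped, at 3.09%, 2.84% and 2.97% after DMSO and 2.80%, 2.73% and 2.97% after auxin. Their retained-intron shares were 5.5%, 4.7% and 4.9% after DMSO and 5.1%, 4.5% and 4.9% after auxin. Which members carry the change in the summed shares was not tested. A retained-intron transcript was above 0 in 67 members. The retained-intron share was higher in every auxin library than in every DMSO library for 4 and lower for 11. Of 7830 tested genes with a retained-intron transcript above 0, the same held for 20.9% and 6.85%. A change in the relative use of transcripts was called for 21 of 147 members (14.3%), against 24.7% of all 12610 genes with several transcripts, in the nominal edgeR diffSpliceDGE test. That test called more unchanged genes than its threshold allows on simulated data.

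ZNF653, which shares 479 exonic bases with ECSIT and another gene, was called in this test. Its retained-intron transcript ZNF653-205 held 0.00%, 0.47% and 0.90% of the gene's TPM after DMSO and 48.3%, 46.3% and 36.2% after auxin, while the protein-coding ZNF653-206 held 31.4% ± 6.0 (SD, n = 3) and 2.1% ± 3.7 (SD, n = 3). The gene's level fell as given above, and ZNF653-205 itself was at 0.02 TPM or less after DMSO and at 0.17 to 0.42 TPM after auxin. In ZNF544, which rose, ZNF544-217 went from 1.67% ± 0.77 to 13.1% ± 2.1 (SD, n = 3 each). ZNF557-201 went from 39.8% ± 0.6 to 62.4% ± 2.5 (SD, n = 3 each) and exceeded ZNF557-202 after auxin but not after DMSO. In ZNF473, whose protein works in histone pre-mRNA processing with the U7 snRNP, ZNF473-203 went from 15.2% ± 5.1 to 38.1% ± 3.3 (SD, n = 3 each). The genes were called as a whole, and the nominal diffSpliceDGE test of single transcripts gave fewer calls. ZNF653-205, ZNF653-206 and ZNF544-217 passed it (adjusted p = 0.00126, 0.019 and 0.00211). ZNF557-201 and ZNF473-203 did not (adjusted p = 0.477 and 0.0734 in diffSpliceDGE).

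A list of 34 genes joined the KRAB co-repressor machinery with DNA methyltransferases, other H3K9 methyltransferases and further chromatin genes. Of these, 33 were tested, and 5 were called higher and 17 lower, with a median log2 fold change of -0.25. Among all genes 25.4% were called higher and 26.9% lower, and among protein-coding genes 27.8% and 33.4%. Of the HP1 genes, CBX5 rose (0.38), and CBX1 (-0.25) and CBX3 (-0.05) were not called. TRIM28, the adaptor of the KRAB box, had a mean of 327.6 ± 48.8 CPM in the DMSO and 49.0 ± 9.1 CPM in the auxin libraries (SD, n = 3). Its log2 change was -2.74 ± 0.16 (SE, adjusted p = 1.83e-05 in edgeR). TRIM28 also lies on chromosome 19, where 482 of 867 tested protein-coding genes without such a ZNF symbol (55.6%) were called lower. The other genes of the list were not sorted by chromosome, so the same background may hold for some of them. SETDB1 rose slightly, by a log2 change of 0.26. The other called changes of at least 1 on the log2 scale were falls, in the DNA methyltransferase DNMT1 (-2.98), the H3K9 methyltransferase EHMT2 (-2.93), UHRF1 (-2.41), which recruits DNMT1, the NuRD subunit MTA1 (-2.02) and the histone chaperone DAXX (-1.72). EHMT1, the partner of EHMT2, rose by 0.52. Of 8 tested chromosome 19 genes with other C2H2-type symbols, ZSCAN5A and ZSCAN22 rose and ZFP14 fell.

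Libraries held 234038000 to 625895000 expected counts, and replicate 1 was the deepest in both groups. Thinning all libraries to the shallowest called 79 members higher and 16 lower, against 25.3% and 27.3% of all genes. Epithelial markers EPCAM, CDH1, KRT8, KRT18 and KRT19 were at 36.5 TPM or more in every library, CEACAM5, LGR5 and VIL1 at 0.02 TPM or less, and the blood genes PTPRC and CD3E at 0. The summed level of the other cell types' markers was 1.31 to 2.65 TPM after DMSO and 0.58 to 1.39 TPM after auxin, most of it COL1A1. In bulk RNA, fewer cells with a transcript and less of it per cell cannot be told apart. Exons of 91 of the 160 members share bases with another gene, and without strand-aware counting, which is not given in the sources used here, reads of antisense partners cannot be told apart. Among the 69 members that share none, 30 were called higher and 7 lower, where 25.4% and 26.9% of all genes tested were.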

How the data were processed

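RNA-seq of HCT116 cells comprised 6 libraries, 3 given auxin and 3 given DMSO, with gene and transcript tables for each. Per the file headers, the authors' tables hold expected counts (estimated, with fractions of reads), TPM and the posterior spread of each count. The deposited TPM values are scaled by transcript length. The deposited posterior SD was over 5% of the count for 3 members. Stranded paired-end libraries were made after removal of ribosomal RNA, per the labels' protocols. Per the submitters' processing notes, bcl2fastq 2.20, STAR, DESeq2 and GRCh38 were used, and the counting tool and use of strand are not given in the sources used here. All 58780 human gene IDs matched GENCODE 29.

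Expected counts were rounded, filtered with filterByExpr, scaled with TMM and tested over 19725 genes with edgeR 4.0.16 in R 4.3.3, after a test on simulated data. Entries that name no gene took at most 0.00111% of a library and were left out. Alternatives used limma 3.58.1 and DESeq2 1.42.0. Standard errors came from the F statistic. Intervals of counts would cover counting error only. Exonic GC and introns came from GENCODE 29, promoters from RefSeq (GRCh38.p14), and identities from global alignments in Biopython 1.88. Protein features were not analysed here, and 1 marker gene is not reported here.

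Members and lists were chosen with earlier results of these data known. Named genes were the 8 strongest called rises and 8 strongest falls with a mean of at least 1 CPM, the 5 highest by TPM, the 2 nearest to 0 and members with a described role. Other genes named, the pericentromeric pair and the transcripts were chosen after their values were seen. The labels give biological replicate numbers but no shared batch. Deviations from group means correlated at 0.65, 0.27 and 0.28 between libraries of the same number, all over 0.1, so the numbers were taken to pair the libraries. DMSO 3 with auxin 2 (0.31) and DMSO 2 with auxin 3 (0.18) also correlated, so replicate 1 stands apart while 2 and 3 are not told apart. p-values measure the spread between these replicates. The main test does not use the pairing, and only the fits named with the replicate block do.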

Additional observations from a re-analysis of the deposited data

How the results depend on the processing

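In edgeR's quasi-likelihood test the members called higher and lower were 81 and 16. The shares of all genes called moved with the setting too, from 25.4% higher and 26.9% lower in this test. Upper-quartile scaling called 100 and 13 members, against 33.1% and 22.4% of all genes, and moved the median of all genes by 0.12. Library-size scaling called 62 and 19 (all genes, 19.7% and 28.5%), and DESeq2 called 85 and 18 (25.95% and 27.6%). The replicate block called 106 and 23, including all 81 and all 16, against 35.5% and 34.4% of all genes. GC-corrected offsets with the replicate block called 89 and 31, against 36.4% and 33.2%. Among the genes named by rule the replicate block changed the calls of ZNF146, ZNF91 and ZNF224 and no other. limma on log2(TPM + 1) and on log2(TPM + 0.1) called 8 and 8 each, and the cause was not tested. Only 69 members share no exonic base, of which 30 and 7 were called, with a median of 0.28 and 0.29 above that of other protein-coding genes. Leaving out each library in turn called 61 to 87 higher and 13 to 15 lower, against 19.25% to 24.9% and 22.2% to 27.9% of all genes.

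The median log2 fold change of the members, 0.32, was 0.44 with upper-quartile scaling, 0.23 with library-size scaling, 0.22 with GC offsets with or without the block, 0.13 and 0.19 on TPM with pseudocounts of 1 and 0.1, and 0.30 to 0.36 without each library. Its difference from other protein-coding genes was 0.21 with GC offsets, with or without the block, and on log2(TPM + 1), and 0.32 to 0.38 without each library.

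Correlations with the change depended on the GC offsets. For exonic GC, r = -0.30 turned to 0.27 with them, also with the replicate block, and was -0.24 on log2(TPM + 1), -0.37 to -0.22 without each library, and -0.10 as Spearman's rho. For intron number, 0.14 turned to -0.16 with the GC offsets with or without the block, and was 0.016 for the longest transcript, 0.12 as rho and 0.10 to 0.17 without each library. For intron length, 0.24 turned to -0.036 and, with the block, to -0.035, and was 0.19 on log2(TPM + 1), 0.21 on log2(TPM + 0.1), 0.19 as rho and 0.20 to 0.28 without each library. The offsets remove by construction a trend on GC, and what else moved the values was not tested. Of the named genes, ZNF799 turned to -0.18 with GC offsets and the block. In all, 486 of their alternative values kept direction and side of the threshold, 40 lost the call, 13 gained it and 1 turned.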
